A study of Arabidopsis thaliana with 28 samples.

Results

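The 46 genes described here write, read or remove DNA methylation and histone marks, or move nucleosomes, in Arabidopsis thaliana. They were taken by their locus identifiers from a fixed list, out of 33201 genes measured in 28 samples of sorted root cells. A row was found for 45 of the 46 genes, and ATX1 (AT2G31650), a histone H3 lysine 4 methyltransferase, was not analysed here. Of these 45, 44 reached 1 FPKM (fragments per kilobase of transcript, scaled to the number of mapped fragments) in at least 3 samples and entered the tests. The exception was DRM1 (AT5G15380), a de novo DNA methyltransferase, which was listed at 0 in 23 of the 28 samples and never exceeded 0.675 FPKM.

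Plants methylate cytosines in the CG, CHG and CHH contexts. CG methylation is copied after each round of DNA replication by the methyltransferase MET1 with the hemimethylated-DNA binding VIM proteins and the remodeller DDM1, while CMT3 and CMT2 methylate non-CG sites on nucleosomes that carry H3K9 methylation. New methylation is placed by RNA-directed DNA methylation (RdDM), in which small RNAs bound to AGO4 guide the DRM methyltransferases, and DNA glycosylases such as ROS1 remove it. Polycomb proteins place H3K27me3 on silent developmental genes, Trithorax-type methyltransferases mark active ones, and ATP-dependent remodellers slide or evict nucleosomes.

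All samples came from root tips of 5-day-old Col-0 seedlings that carried a fluorescent reporter and were protoplasted and sorted. There were 7 reporter-positive populations. AGL42:GFP marked the stem cell niche as a whole (SCN, n = 4). CYCD6:GFP was used for the initials of cortex and endodermis (CEI, n = 3), FEZ:FEZ:GFP for those of the epidermis and lateral root cap (Epi/LRC, n = 3), and J2341:GFP, an enhancer trap, for stem cells of the columella (CSCs, n = 3). In the vasculature CVP2:NLS:VENUS labelled protophloem cells (Protophlo, n = 4) and TMO5:3xGFP labelled xylem cells (Xyl, n = 4). WOX5:GFP marked the quiescent center (QC, n = 3). They were compared with the non-stem cells (NSCs, n = 4), which were sorted from AGL42:GFP roots for lack of GFP. Each population was therefore defined by 1 reporter line, and the SCN sort, which took the niche as a whole, can hold cells of the other sorted types. Per the study's methods, seed was sterilized and plated for each biological replicate.

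Between 13643 and 18778 genes reached 1 FPKM in a sample, and the steps between low values put the depth at roughly 6830000 to 26700000 reads. The reporter genes were high in their own populations for TMO5 (851 to 1340 FPKM in Xyl), WOX5 (127 to 264 in QC) and FEZ (72.3 to 262 in Epi/LRC, and 55.9 to 109 in CSCs). In CSCs, TMO5 had 3.53, 82.0 and 0 FPKM. ACL5, looked at as a Xyl marker, had 26.35, 181 and 30.1 FPKM in CSCs and 45.5 to 113 in Xyl. AGL42, the SCN reporter gene, had 4.73, 31.9, 7.18 and 14.2 FPKM in SCN and 1.05 to 2.60 in the NSCs. It had 4.23 to 17.1 FPKM in CEI, 5.21 to 10.3 in Protophlo and 10.15 to 19.25 in QC, which overlap the SCN values. WOX5 had 13.9, 30.8, 0 and 27.8 FPKM in SCN. In Protophlo and CEI the reporter genes were low in most libraries. In Protophlo, CVP2 had 1.71, 0.207, 0 and 5.22 FPKM and the phloem regulator APL 3.46, 3.58, 3.44 and 0 FPKM. BAM3, another Protophlo marker looked at, had 0, 0.542, 0.186 and 16.3 FPKM in Protophlo and 0.966 to 6.885 in the NSCs. The 6 Protophlo markers summed to 5.91 to 21.6 FPKM in Protophlo, 8.35 to 32.9 in the NSCs and 15.3 to 32.2 in Xyl. CVP2 had 10.5 to 26.5 FPKM in Xyl and 3.13 to 15.0 in CSCs. The root hair gene EXPA7 had 369, 552, 238 and 347 FPKM in Protophlo, against 33.6 to 78.6 in the NSCs. EXPA7 also had 172 and 235 FPKM in SCN replicates 1 and 4. It had 160 in CEI replicate 3, 161 in Epi/LRC replicate 3 and 162 in Xyl replicate 2. COBL9, another root hair gene, was highest in SCN replicate 1 (451 FPKM). In CEI, CYCD6 had 1.89, 1.48 and 22.7 FPKM. SCR, the other CEI marker looked at, had 33.1, 16.4 and 100.3 FPKM in CEI. It had 4.52 to 8.455 FPKM in the NSCs and 23.5 to 50.4 in QC. The endodermal barrier gene CASP1, which marks differentiated endodermis, stood at 6.55, 5.35, 2.36 and 3040 FPKM in the 4 Protophlo libraries, 123, 999.8 and 10.1 FPKM in the 3 CEI libraries and 444, 468, 586 and 788 FPKM in the NSCs. CASP1 had 167, 18.7 and 0.531 FPKM in QC and 1.91 to 81.1 in Xyl. The Protophlo libraries are thus named by their reporter only. Protophlo replicate 4 and CEI replicate 2 stand apart from their own groups in CASP1, and counts in these populations are given with and without that pair. Protophlo replicate 4 had the highest CVP2 and BAM3 of its group as well, with APL at 0. QC replicate 1 (CASP1) and CSCs replicate 2 (TMO5 and ACL5) also stand apart, and were left out only singly. The part of other cell types in the results was not tested. In sorted bulk RNA, fewer cells of a type and less RNA per cell cannot be told apart.

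Each population was compared with the NSCs in 1 limma fit on log2(FPKM + 1), and a gene was called when its Benjamini-Hochberg adjusted p was under 0.06 and its fold change above 2, the thresholds used in the study. Fold changes and their standard errors are on this log2(FPKM + 1) scale, which understates the change of low genes. The chromatin genes were most often higher in the columella stem cells and the xylem cells. In CSCs, 25 of the 44 tested members (56.8%) were higher than in the NSCs and 1 was lower, against 22.6% higher and 18.3% lower of all 22694 genes tested. In Xyl, 21 members (47.7%) were higher and 1 lower, against 20.0% and 23.5% of all genes. The median member differed from the NSCs by 1.31 in CSCs and 1.15 in Xyl on the log2 scale, where the median over all genes was 0.08 and -0.20.

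In QC, 11 members (25%) were higher and 1 lower, against 9.31% and 9.49% of all genes, and in Epi/LRC 11 were higher and 1 lower, against 12.5% and 16.6%. The QC count fell to 7 without QC replicate 3 and to 5 without NSCs replicate 4, and the Epi/LRC count to 7 without NSCs replicate 4. In SCN, 5 members were higher and 1 lower, against 5.52% and 8.89% of all genes, and 8 were higher without SCN replicate 1. In CEI, 5 were higher and 0 lower (1 lower without NSCs replicate 3, and 1 at an unadjusted limma p under 0.05), against 5.37% and 5.04%. The CEI count rested on single libraries: it was 8 without CEI replicate 2, 1 without CEI replicate 1 or 3, 2 without NSCs replicate 2, 3 or 4, and 3 without NSCs replicate 1 or any 1 of the 4 Xyl libraries.

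In the fit with all libraries, Protophlo ran the other way. There 1 member was higher and 10 were lower (22.7%), against 3.51% and 10.5% of all genes, and the median member was -0.47 against -0.23 over all genes. Without the pair of high-CASP1 libraries, 5 were lower in Protophlo and 8 higher in CEI. The share of all genes was not taken without that pair. A count of 5 is 11.4% of the 44 members, close to the 10.5% of all genes that were lower with all libraries. The Protophlo count was also 5 or 6 without Protophlo replicate 2, 3 or 4, Xyl replicate 3, NSCs replicate 1 or NSCs replicate 3, and 4 without NSCs replicate 2. Across the 45 members in the table, the highest population mean fell in CSCs for 21, in Xyl for 9, in Epi/LRC for 6 and in QC for 5, and the lowest fell in Protophlo for 29. The 45 include DRM1, which did not enter the tests. These counts were not taken over all genes, so they cannot be read as particular to the members. The F test over all 8 populations passed an adjusted p of 0.05 for 34 of the 44 members, against 59.3% of all genes.

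The 7 comparisons share the NSC samples, so a high or low value in those 4 libraries enters each of them. Scaling the samples by median-of-ratios size factors moved the median of all genes by -0.30 in CSCs, -0.22 in QC, -0.14 in Epi/LRC, -0.11 in SCN and Xyl and 0.10 in Protophlo on the log2 scale. With that scaling, 17 members were higher in CSCs, 17 in Xyl, 10 in Epi/LRC and 6 in QC, and 6 were lower in Protophlo. Over all genes, 3266 were then higher in CSCs, 4066 in Xyl, 2287 in Epi/LRC and 1223 in QC. Without it these numbers were 5122, 4541, 2830 and 2113. In Protophlo the lower members went from 10 to 6 with that scaling, and the lower genes from 2383 to 2264. The share of calls that were higher moved over all genes to 38.1% from 55.2% in CSCs, to 29.7% from 49.5% in QC and to 35.8% from 25.1% in Protophlo. Of the 94 called pairs of a member and a comparison with the NSCs, 71 stayed called with size factors. Under every alternative and without any single library 51 stayed called, and none of the 94 changed sign.

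**Figure D1:**
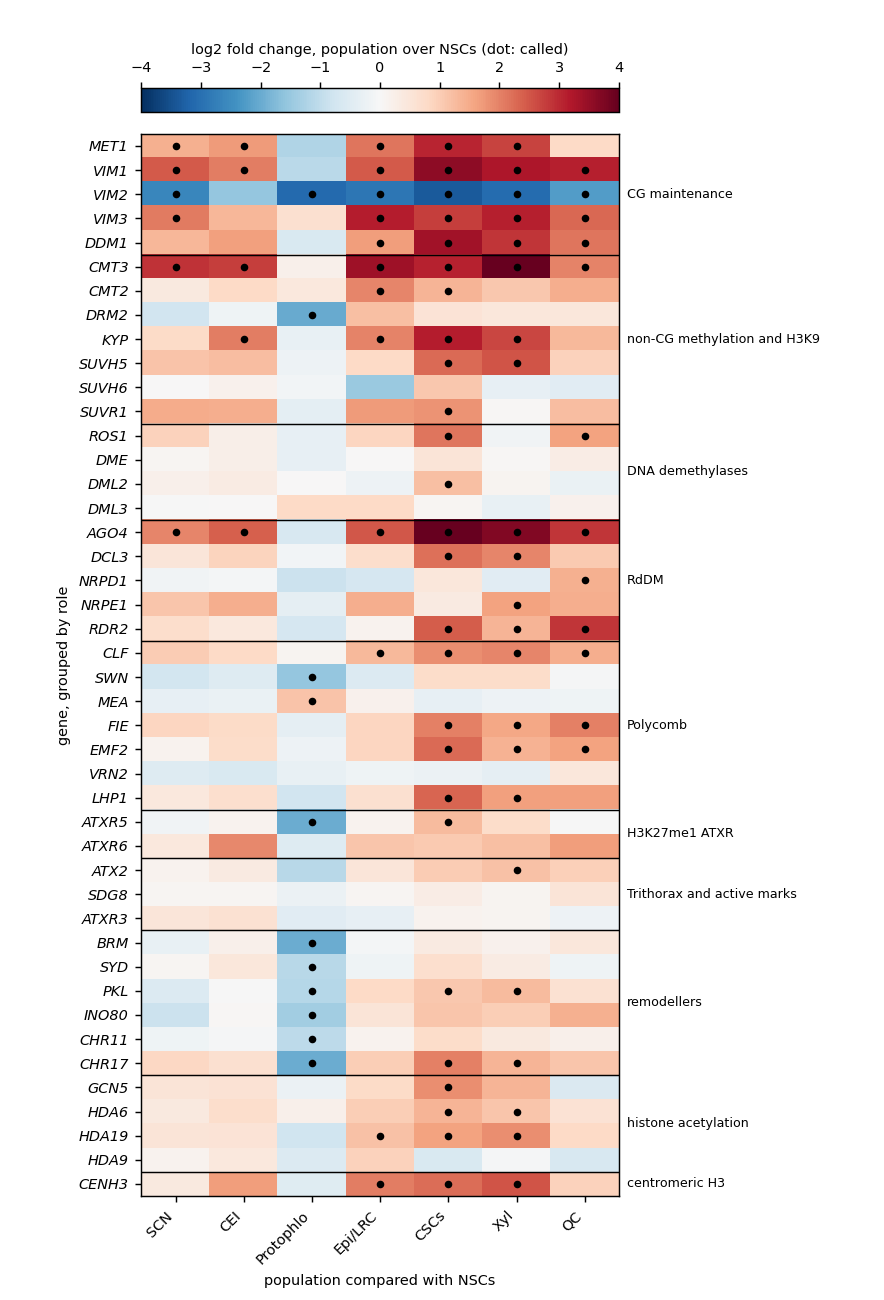
Log2 fold change, on the log2(FPKM + 1) scale, of the 44 tested chromatin genes (rows, grouped by role) in each of the 7 populations over the NSCs (columns). Dots mark calls at adjusted p under 0.06 and fold change above 2; red columns dominate in CSCs (25 higher) and Xyl (21 higher), and blue in Protophlo (10 lower).

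Of the 5 genes that maintain CG methylation, 4 were higher in Epi/LRC, CSCs and Xyl, 3 in SCN and QC and 2 in CEI, and VIM2 was lower in 6 populations. MET1 (AT5G49160, chr5:19932114-19938470, TAIR10.1), the CG maintenance methyltransferase, had 25.9, 20.6 and 29.2 FPKM in CSCs, 6.71, 20.6 and 15.0 in Epi/LRC, 18.2, 22.3, 16.0 and 21.2 in Xyl, 9.90, 3.51 and 20.0 in CEI, 2.14, 11.4, 11.8 and 8.97 in SCN, 7.69, 3.57 and 3.02 in QC and 0.772, 0.278, 0.511 and 0.0295 in Protophlo, against 3.27, 2.69, 1.08 and 1.89 in the NSCs. The CSCs, Xyl, Epi/LRC and CEI samples all lay above the NSCs, the Protophlo samples all lay below them, and the SCN and QC samples overlapped them. MET1 was called higher in CSCs by 3.06 ± 0.53 (adjusted p = 9.4e-05), in Xyl by 2.70, in Epi/LRC by 2.15, in CEI by 1.69 and in SCN by 1.43 ± 0.49 (adjusted p = 0.0527). The SCN and CEI calls were lost without several single libraries, among them SCN replicate 2, 3 or 4 and CEI replicate 1 or 3, and both were lost with the replicate block. In QC MET1 was not called (0.80, adjusted p = 0.317).

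VIM1 (AT1G57820), which binds hemimethylated CG sites, had 77.9, 51.8 and 54.2 FPKM in CSCs, 40.7, 42.8, 47.7 and 57.9 in Xyl, 40.2, 55.1 and 36.3 in QC, 5.09, 59.1, 47.9 and 35.1 in SCN, 9.60, 38.0 and 52.5 in Epi/LRC, 23.2, 8.35 and 41.0 in CEI and 6.65, 2.12, 0.132 and 0.316 in Protophlo, against 5.98, 4.11, 4.67 and 2.41 in the NSCs. Every CSCs, Xyl, QC, Epi/LRC and CEI sample exceeded every NSC sample, and in SCN replicate 1 alone lay among the NSCs. It was called higher in all populations but Protophlo, by 3.58 ± 0.69 (adjusted p = 0.000259) in CSCs and 3.11 ± 0.69 (adjusted p = 0.00305) in QC, where it was the member with the largest increase. Its CEI call (adjusted p = 0.0594) was lost without any 1 of 19 libraries.

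DDM1 (AT5G66750), the remodeller that gives methyltransferases access to heterochromatin, had 47.0, 33.3 and 43.0 FPKM in CSCs, 25.9, 29.9, 27.6 and 31.7 in Xyl, 17.3, 20.7 and 13.4 in QC and 11.1, 14.2 and 11.0 in Epi/LRC, against 2.96, 3.42, 2.46 and 3.50 in the NSCs. These 4 populations lay wholly above the NSCs and were called, with 3.36 ± 0.57 (adjusted p = 7.8e-05) in CSCs and 1.68 in Epi/LRC. The Epi/LRC call was lost without Epi/LRC replicate 1 or 2 or NSCs replicate 3. DDM1 had 2.30, 23.7, 20.2 and 5.14 FPKM in SCN, 14.6, 5.60 and 19.1 in CEI and 4.75, 0.323, 3.27 and 0.544 in Protophlo, and none of these differences was called. VIM3 (AT5G39550), a close homologue of VIM1, averaged 32.7 ± 16.5 FPKM in Epi/LRC and 29.96 ± 4.98 in Xyl, against 2.56 ± 0.363 in the NSCs (SD, n = 3, 4 and 4), and was called higher in SCN, Epi/LRC, CSCs, Xyl and QC.

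**Figure D2:**
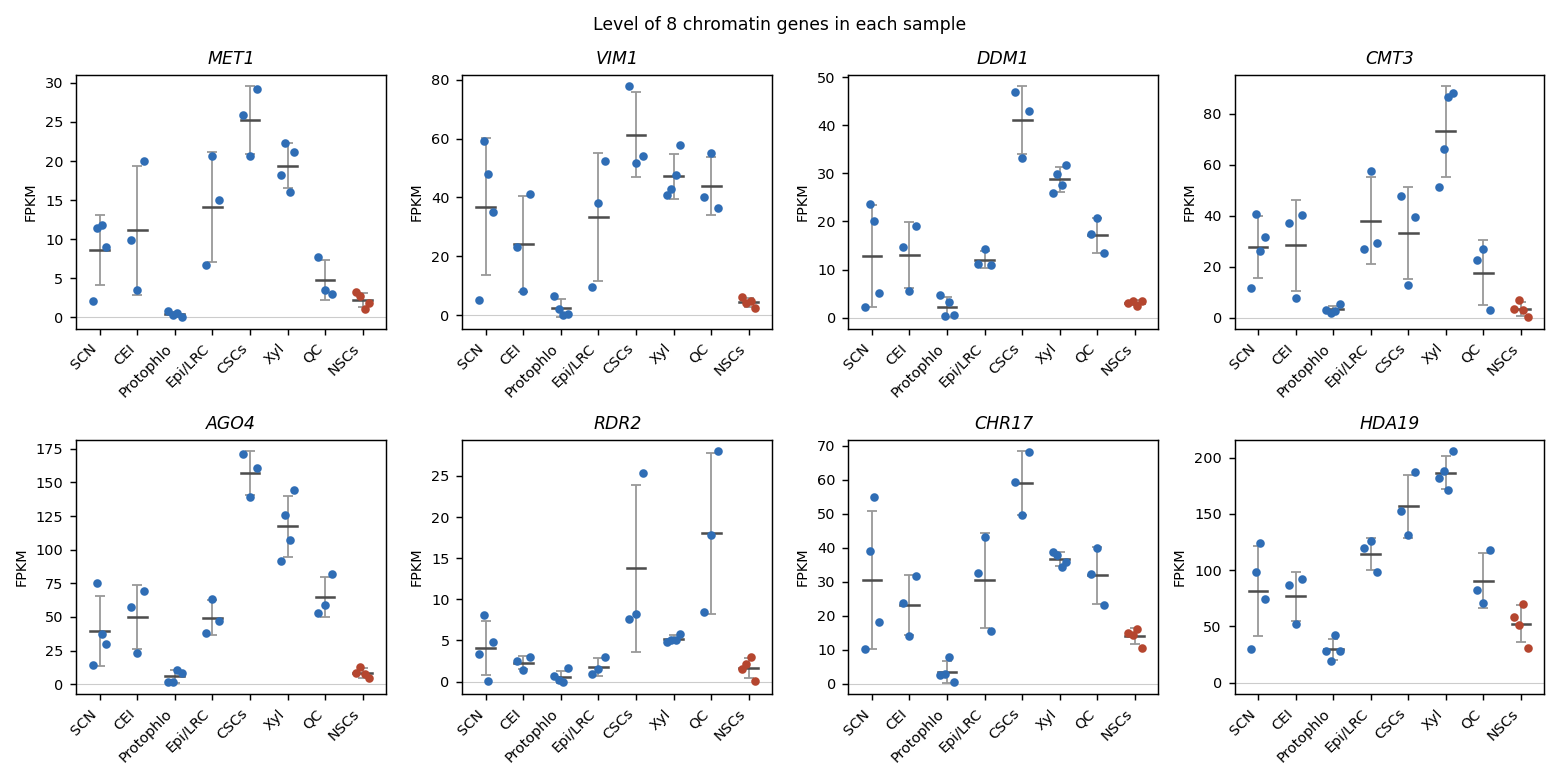
FPKM of 8 chromatin genes in each sample (points), with the population mean (bar) and SD (whisker); the 7 reporter-positive populations are blue and the NSCs red, at the right. AGO4 lies between 139 and 171 FPKM in CSCs and between 4.47 and 13 FPKM in the NSCs.

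VIM2 (AT1G66050) was the only member called lower than the NSCs in SCN, Epi/LRC, CSCs, Xyl and QC. It had 0.216, 0.193 and 0.130 FPKM in CSCs, 0.0309, 0.0700, 0.903 and 0.929 in Protophlo, 0.0283, 1.48 and 0.740 in Epi/LRC, 1.37, 0.626, 0.161 and 0.000178 in Xyl, 0.0393, 1.74, 2.87 and 0.513 in SCN, 1.16, 1.90 and 1.77 in QC and 2.53, 2.81 and 4.44 in CEI, against 30.8, 45.5, 2.22 and 3.70 in the NSCs. NSCs replicates 1 and 2 were thus far above replicates 3 and 4, and the SCN and CEI samples overlapped replicates 3 and 4 while the other populations lay wholly below all 4. VIM2 was called lower in 6 populations, with changes of -3.37 in CSCs, -3.11 in Protophlo, -3.07 in Xyl, -2.90 in Epi/LRC, -2.60 in SCN and -2.24 in QC. The QC call was lost without NSCs replicate 1 or 2 or QC replicate 1; the SCN, Epi/LRC and QC calls were lost when the population was fitted with the NSCs alone.

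The VIM2 level is uncertain, since most of its transcript is shared with a neighbour. VIM2 lies at chr1:24589343-24592780 on the plus strand (TAIR10.1), and AT1G66040, called VIM4 here, at chr1:24583740-24586760 on the minus strand. Their coding sequences are 99.4% identical, against 94.5% for VIM2 and VIM3 and 74.3% for VIM2 and VIM1. Of the 2128 windows of 100 bases, the read length of the study, in the VIM2 transcript, 59.1% occur unchanged in a transcript of another gene, against 1.71% for VIM3 and none for VIM1. The first 60 coding bases are shown, read from the TAIR10.1 genome with the RefSeq annotation, because they show which VIM reads can be told apart; capitals mark bases that differ from VIM2.
VIM2: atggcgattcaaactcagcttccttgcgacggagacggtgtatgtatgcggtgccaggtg
VIM4: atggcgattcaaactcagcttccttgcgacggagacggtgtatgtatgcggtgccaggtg
VIM3: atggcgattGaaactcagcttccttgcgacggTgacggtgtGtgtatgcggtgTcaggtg
VIM1: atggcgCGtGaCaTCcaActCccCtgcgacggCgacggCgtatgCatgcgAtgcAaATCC
Over this stretch VIM4 has 0 differences from VIM2, VIM3 has 4 and VIM1 has 18. VIM4 had 17.3, 25.8, 1.59 and 2.18 FPKM in the 4 NSC libraries, the same order as VIM2, and did not exceed 2.43 FPKM in any other library. The 2 values are therefore uncertain singly.

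**Figure D3:**
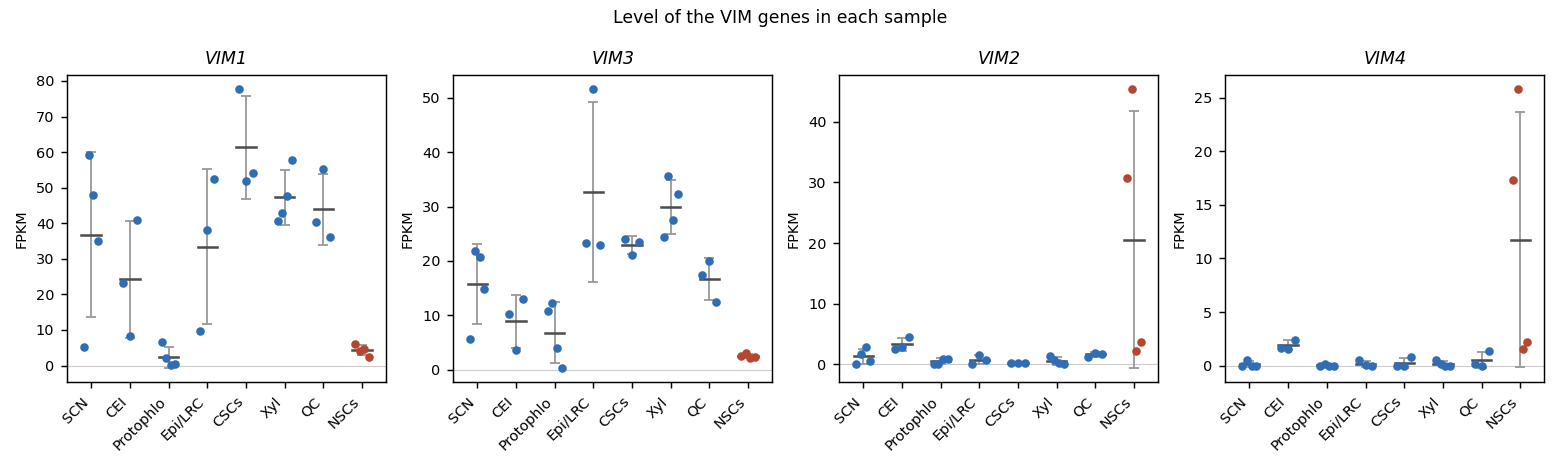
FPKM of VIM1, VIM3, VIM2 and its tandem copy VIM4 in each sample (points), with the population mean (bar) and SD (whisker), NSCs in red at the right. VIM1 and VIM3 have their lowest means in Protophlo and the NSCs, while VIM2 and VIM4 are high only in NSCs replicates 1 and 2 (VIM2 at 30.8 and 45.5 FPKM).

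Among the non-CG methyltransferases and the H3K9 methyltransferases that work with them, CMT3 was higher in 6 populations, KYP in 4, SUVH5 and CMT2 in 2 each and SUVR1 in 1, and the de novo enzyme DRM2 in none. CMT3 (AT1G69770, chr1:26248118-26253687), the CHG methyltransferase, was highest in Xyl. It had 51.3, 66.1, 86.9 and 88.4 FPKM in Xyl, 47.6, 12.8 and 39.4 in CSCs, 27, 57.7 and 29.3 in Epi/LRC, 37.1, 7.67 and 40.3 in CEI, 11.6, 40.6, 26.3 and 31.8 in SCN, 22.8, 26.9 and 3.06 in QC and 2.96, 1.92, 2.70 and 5.35 in Protophlo, against 3.31, 6.94, 2.98 and 0.137 in the NSCs. The Xyl mean exceeded the next mean, in Epi/LRC, by more than either SD. CMT3 was called in all populations but Protophlo and was the most increased member in SCN (2.89 ± 0.62, adjusted p = 0.00288), CEI (2.76 ± 0.67, adjusted p = 0.0112), Epi/LRC (3.38 ± 0.67, adjusted p = 0.000735) and Xyl (4.36 ± 0.62, adjusted p = 7.3e-06). The CEI call was lost without CEI replicate 1 or 3, and the QC call without QC replicate 1 or 2 or NSCs replicate 3 or 4.

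KYP, which methylates H3K9, averaged 22.6 ± 6.63 FPKM in CSCs and 16.0 ± 3.44 in Xyl, against 1.61 ± 0.218 in the NSCs (SD, n = 3, 4 and 4). It was called in CEI, Epi/LRC, CSCs and Xyl, with its largest change of 3.14 ± 0.67 (adjusted p = 0.000707) in CSCs. SUVH5, another H3K9 methyltransferase, was called in CSCs (2.26) and Xyl (2.51), CMT2, the CHH methyltransferase, in Epi/LRC (1.96) and CSCs (1.35), and SUVR1, a SET domain protein of the same family, in CSCs (1.80, lost without any 1 of 23 libraries). DRM2, the main de novo methyltransferase, was called only in Protophlo, where it was lower (-2.03 ± 0.65, adjusted p = 0.0380), a call lost without the pair of high-CASP1 libraries and without any 1 of 6 libraries. SUVH6, an H3K9 methyltransferase of the KYP family, was called in no comparison. Of these calls, KYP in CEI was lost without any 1 of 10 libraries and in Epi/LRC without Epi/LRC replicate 2 or 3 or NSCs replicate 4, and CMT2 was lost in Epi/LRC without Epi/LRC replicate 2 and in CSCs without any 1 of 7 libraries.

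AGO4 (AT2G27040, chr2:11536502-11542391), the Argonaute that carries the small RNAs of RdDM, had the largest F of all members (24.4, adjusted p = 7.8e-08). It had 171, 139 and 161 FPKM in CSCs, 91.6, 126, 107 and 144 in Xyl, 53.2, 59.3 and 82.0 in QC, 38.2, 63.4 and 47.1 in Epi/LRC, 57.4, 23.2 and 69.4 in CEI, 14.4, 75.5, 37.6 and 29.9 in SCN and 2.06, 1.95, 10.8 and 8.45 in Protophlo, against 8.61, 13, 7.41 and 4.47 in the NSCs. All samples of the first 6 of these populations exceeded all NSC samples, and the Protophlo samples overlapped them. The change was 4.15 ± 0.50 (adjusted p = 9.5e-07) in CSCs, 3.72 in Xyl, 2.87 in QC, 2.48 in Epi/LRC, 2.39 in CEI and 1.96 in SCN. All 6 calls held under every alternative and without any single library.

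The other 4 RdDM members were called in 1 to 3 populations each. RDR2 (AT4G11130), the polymerase that makes the small RNA precursors double-stranded, had 8.42, 17.8 and 28 FPKM in QC, 7.64, 8.20 and 25.4 in CSCs, 4.85, 5.09, 5.00 and 5.84 in Xyl, 3.39, 8.04, 0.0562 and 4.75 in SCN, 2.47, 1.45 and 2.99 in CEI, 0.880, 1.48 and 2.96 in Epi/LRC and 0.683, 0.139, 0 and 1.60 in Protophlo, against 1.58, 2.16, 2.95 and 0.0239 in the NSCs. The QC samples all exceeded the NSCs but overlapped the CSCs samples. It was called in QC (2.85 ± 0.63, adjusted p = 0.00299), CSCs (2.42 ± 0.63, adjusted p = 0.00351) and Xyl (1.37 ± 0.58, adjusted p = 0.0583); the Xyl call was lost without any 1 of 19 libraries. DCL3, the Dicer of the pathway, was called in CSCs and Xyl (2.20 and 1.96), NRPE1, the largest subunit of RNA polymerase V, in Xyl only (1.62 ± 0.56, adjusted p = 0.0199, lost without Xyl replicate 4, with 1.45 in CEI, 1.44 in Epi/LRC and 1.46 in QC not called), and NRPD1, the largest subunit of RNA polymerase IV, in QC only (1.41 ± 0.52, adjusted p = 0.0588, lost without any 1 of 18 libraries).

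The QC, which divides rarely, was also compared with the mean of the other sorted types, CEI, Protophlo, Epi/LRC, CSCs and Xyl. There 2 members were higher and 0 lower (5 and 1 at an unadjusted limma p under 0.05), against 1.56% and 0.375% of all genes. Both act at the start of RdDM: RDR2 differed by 2.11 ± 0.52 (adjusted p = 0.0303) and NRPD1 by 1.74 ± 0.43 (adjusted p = 0.0308). NRPD1 had 3.52, 6.22 and 8.02 FPKM in QC, against 0.0111, 4.12 and 6.59 in CSCs, 0.753, 2.04 and 1.49 in CEI, 0.896, 0.239 and 0.674 in Epi/LRC, 0.893, 0.689, 0.720 and 1.09 in Xyl and 0.635, 0.114, 0.766 and 0.0671 in Protophlo. For both genes CSCs replicates 2 and 3 reached into or near the QC range, while NRPD1 in CSCs replicate 1 was near 0. Both calls were lost without QC replicate 2 or 3 and with a pseudocount of 0.1. Protophlo, part of the reference, had the lowest mean of both genes (RDR2 0.606 and NRPD1 0.395 FPKM), and no setting left that population out. MET1 was not called (-0.88, adjusted p = 0.354).

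Of 16 further RdDM genes, 14 were tested. Of these, 10 were higher in CSCs, 7 in Xyl, 2 each in Epi/LRC and QC and 1 in SCN, and none was lower in any population. Of all genes tested, 22.6% were higher in CSCs, 20.0% in Xyl, 12.5% in Epi/LRC, 9.31% in QC and 5.52% in SCN. The Epi/LRC, QC and SCN counts are near those shares. IDN2, an RNA-binding protein of the pathway, was called most often (5 populations). It averaged 185 FPKM in CSCs and 4.27 FPKM in the NSCs (5.12 ± 0.72, adjusted p = 8.3e-06). DMS3, which works with RNA polymerase V, was called in 3, with 26.5 FPKM in CSCs and 2.95 in the NSCs (2.78 ± 0.60).

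The DNA glycosylases that remove methylation were called in few comparisons. ROS1 (AT2G36490), the main demethylase of vegetative tissue, had 17.2, 8.09 and 21.1 FPKM in CSCs and 8.05, 8.53 and 12.3 in QC, against 2.54, 2.97, 2.43 and 2.00 in the NSCs. Both populations lay wholly above the NSCs and were called, by 2.15 ± 0.48 (adjusted p = 0.00106) in CSCs and 1.59 ± 0.48 (adjusted p = 0.0233) in QC, while Xyl, with 3.46, 1.98, 2.21 and 1.36 FPKM, overlapped the NSCs (-0.13). The QC call was lost without QC replicate 3 or NSCs replicate 4. DML2 was called in CSCs (1.22 ± 0.47, adjusted p = 0.0424), with 0, 2.90 and 6.28 FPKM in CSCs, against 0.228, 0.188, 0.376 and 0.478 in the NSCs, so that 1 CSCs library was at 0; the call was lost without any 1 of 5 libraries. DME and DML3 were called in no comparison. ROS1 was 1 of the 46 genes, and the only one, with an E2F-type motif in the 250 bases before its RefSeq start. The motifs searched were TTTCCCGC, TTTGGCGC, TTTCGCGC and TTTGCCGC, on both strands, and 1.41% of 27444 protein-coding genes hold one in the same window, as do 6 of 14 DNA replication genes. The window around it (chr2:15314808-15314867, minus strand, TAIR10.1, motif in capitals) is shown as the only such match.
ROS1: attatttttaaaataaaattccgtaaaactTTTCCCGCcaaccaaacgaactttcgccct
The match is a description of these letters and says nothing of binding, and its absence before the other genes says only that these letters are not in that window.

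The Polycomb repressive complex 2 genes divided. CLF (AT2G23380), a histone H3K27 methyltransferase, had 29.7, 42.4, 33.9 and 44.2 FPKM in Xyl, 50.7, 22.5 and 35.1 in CSCs, 16.7, 18.4 and 54.1 in QC and 21.0, 19.3 and 30.2 in Epi/LRC, against 11.6, 12.7, 7.44 and 5.14 in the NSCs. These 4 populations lay wholly above the NSCs. CLF was called in Xyl (1.97 ± 0.41, adjusted p = 0.000432), CSCs (1.86 ± 0.45, adjusted p = 0.00190), QC (1.45 ± 0.45, adjusted p = 0.0253) and Epi/LRC (1.31 ± 0.45, adjusted p = 0.0299), and the last 2 calls were lost without NSCs replicate 4, among others. FIE and EMF2, subunits of the same complex, were called in CSCs, Xyl and QC, by 2.02, 1.54 and 2.02 for FIE and by 2.26, 1.38 and 1.61 for EMF2. LHP1, which binds H3K27me3, was called in CSCs (2.34) and Xyl (1.64). FIE was lost without CSCs replicate 3 in CSCs, without any 1 of 6 libraries in Xyl and without QC replicate 2 or 3 or NSCs replicate 4 in QC. EMF2 was lost in QC without QC replicate 3 or NSCs replicate 4, and LHP1 in Xyl without Xyl replicate 1 or 4 or NSCs replicate 4. With size factors, every FIE call and the QC calls of CLF and EMF2 were lost. With a pseudocount of 0.1, every FIE call and the Xyl call of LHP1 were lost. VRN2, the alternative to EMF2 in the complex, was called in no comparison, and averaged 15.2 ± 3.74 FPKM in QC and 10.7 ± 1.70 in the NSCs (SD, n = 3 and 4).

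Of the paralogues of CLF, MEA was called higher and SWN lower in Protophlo, and neither was called in another comparison. MEA (AT1G02580), known from the endosperm, had 0.763, 1.85, 3.16 and 4.47 FPKM in Protophlo, against 0.548, 0.538, 0.883 and 0.0558 in the NSCs, and was the only member called higher there (1.15 ± 0.35, adjusted p = 0.0287). Protophlo replicate 1 lay among the NSCs, and the call was lost without Protophlo replicate 3 or 4, NSCs replicate 4 or the pair of high-CASP1 libraries. SWN was called lower in Protophlo (-1.53 ± 0.53, adjusted p = 0.0566), which was lost without any 1 of 15 libraries. Its samples lay wholly above the NSCs in CSCs (0.72) and Xyl (0.74), where it was not called. A further list of 13 genes joined Polycomb genes with demethylases (REF6, ELF6 and JMJ13) that remove H3K27me3, and 12 were tested. Of these, 6 were higher in CSCs, 5 in Xyl and 2 each in Epi/LRC and QC, with 1 lower in Xyl and 1 in Protophlo. Of all genes tested, 22.6% were higher in CSCs, 20.0% in Xyl, 12.5% in Epi/LRC and 9.31% in QC. The shares lower were 23.5% in Xyl and 10.5% in Protophlo. REF6, an H3K27 demethylase, was called in 4 populations (22.3 FPKM in CSCs, 5.16 in the NSCs) and MSI1, a histone-binding subunit, in 3 (96.0 FPKM in Xyl, 15.5 in the NSCs, 2.59 ± 0.41).

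Of the H3K27 monomethyltransferases, which act on newly replicated chromatin, ATXR5 (AT5G09790) had 13.2, 41.8 and 23.8 FPKM in CSCs and 1.21, 3.27, 0 and 3.53 in Protophlo, against 9.06, 8.64, 15.3 and 5.80 in the NSCs. The Protophlo samples lay wholly below the NSCs and were called (-1.99 ± 0.49, adjusted p = 0.00779), a call that stood without any single library. CSCs overlapped the NSCs, and its call (1.28 ± 0.53, adjusted p = 0.0562) was lost without any 1 of 14 libraries. ATXR6 was called nowhere. Of the active-mark methyltransferases, ATX2 was called once, in Xyl (1.18 ± 0.50, adjusted p = 0.0573), with 17.4, 17.7, 13.5 and 21.2 FPKM in Xyl, against 7.36, 7.04, 6.77 and 7.10 in the NSCs, a call lost without any 1 of 15 libraries. SDG8, an H3K36 methyltransferase, and ATXR3, an H3K4 methyltransferase, were called nowhere and had adjusted p of 0.899 and 0.429 in the F test.

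The 6 remodelling ATPases other than DDM1, which is described above with CG maintenance, were all called lower in Protophlo. Of these 6, 2 were higher elsewhere. DDM1 was not called in Protophlo and was higher in 4 populations. CHR17 (AT5G18620, chr5:6195689-6202168), an ISWI-type ATPase whose annotated span overlaps a neighbouring gene, had 59.4, 49.6 and 68.2 FPKM in CSCs, 38.8, 37.8, 34.4 and 35.9 in Xyl, 32.4, 40.1 and 23.2 in QC and 2.68, 2.93, 7.96 and 0.464 in Protophlo, against 14.8, 14.4, 16.1 and 10.5 in the NSCs. CSCs, Xyl and QC lay wholly above the NSCs and Protophlo wholly below them. CHR17 was called higher in CSCs (2.01 ± 0.50, adjusted p = 0.00274) and Xyl (1.35 ± 0.47, adjusted p = 0.0210, lost without NSCs replicate 4) and lower in Protophlo (-2.0 ± 0.47, adjusted p = 0.00544). PKL, a CHD3-type remodeller, was higher in CSCs (1.09, lost without CSCs replicate 2 or 3 or NSCs replicate 4) and Xyl (1.28). The annotated spans of PKL, BRM and INO80 also overlap other genes.

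In Protophlo, BRM, a SWI/SNF ATPase, had 3.11, 3.37, 2.75 and 0.70 FPKM, against 12.2, 15.8, 9.46 and 11.5 in the NSCs (-1.99 ± 0.45, adjusted p = 0.00375). Its Protophlo samples lay wholly below the NSCs, as did those of SYD (also SWI/SNF), INO80 (of the complex named after it), CHR11 (ISWI, like CHR17) and CHR17, while PKL overlapped; 17.1% of all genes tested lay wholly below the NSCs in Protophlo. The other calls were -1.40 for INO80, -1.14 for PKL, -1.11 for SYD and -1.04 for CHR11. BRM and CHR17 stayed called under every alternative and without any single library. INO80 (adjusted p = 0.0590) and SYD (0.0577) were close to the threshold and lost their calls without 24 and 18 single libraries, and without the pair of high-CASP1 libraries, CHR11 too was lost. The calls of SYD, PKL, INO80 and CHR11 were all lost on the TPM scale and with size factors, and those of SYD, PKL and INO80 with the replicate block. PKL was lost without any 1 of 6 libraries, and CHR11 without Protophlo replicate 3 or 4 or NSCs replicate 2.

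**Figure D4:**
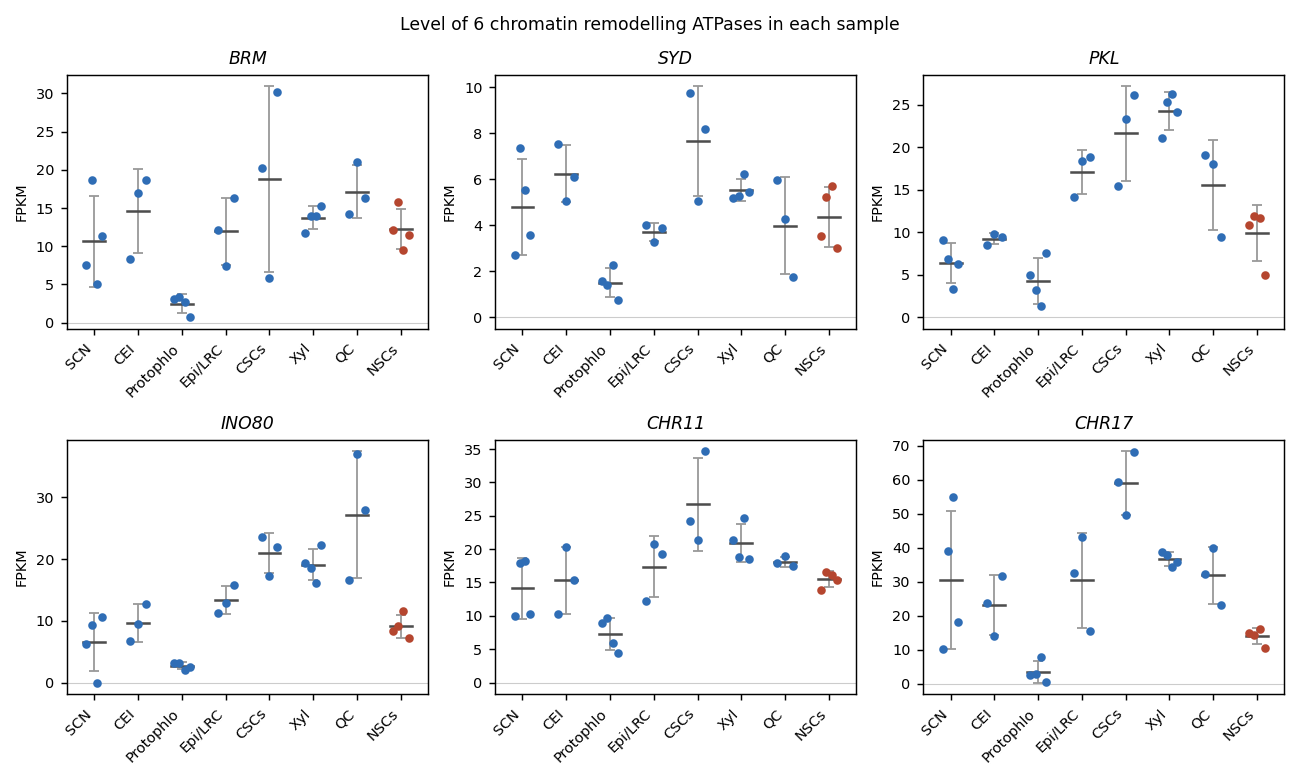
FPKM of 6 remodelling ATPases in each sample (points), with the population mean (bar) and SD (whisker), NSCs in red at the right. The Protophlo points lie below all NSC points for every gene but PKL, and CHR17 reaches 49.6 to 68.2 FPKM in CSCs.

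Of the 4 histone acetylation members, 3 were higher in CSCs, 2 in Xyl and 1 in Epi/LRC. HDA19 (AT4G38130) had 182, 188, 172 and 206 FPKM in Xyl, 153, 131 and 187 in CSCs and 119.7, 126 and 98.6 in Epi/LRC, against 58.5, 51.3, 69.6 and 30.3 in the NSCs, with no overlap. It was called in Xyl (1.87 ± 0.35, adjusted p = 0.000131), CSCs (1.61 ± 0.38, adjusted p = 0.00154) and Epi/LRC (1.17 ± 0.38, adjusted p = 0.0219), the last lost without Epi/LRC replicate 1 or 2 or NSCs replicate 4. HDA6, which silences transposons with MET1, was called in CSCs and Xyl (1.37 and 1.12) and GCN5, a histone acetyltransferase, in CSCs (1.87 ± 0.70, adjusted p = 0.0344, lost without CSCs replicate 2 or 3 or NSCs replicate 1). Both HDA6 calls, the HDA19 call in Epi/LRC and the GCN5 call were lost with size factors. HDA9, another deacetylase, was called nowhere (-0.61 in CSCs and -0.05 in Xyl). Of 13 further deacetylases 11 were tested, with 7 each higher in Epi/LRC and Xyl, 6 in CSCs, 5 in CEI, 4 each in SCN and QC, and 1 lower in QC. Of all genes tested, 12.5% were higher in Epi/LRC, 20.0% in Xyl, 22.6% in CSCs, 5.37% in CEI, 5.52% in SCN and 9.31% in QC. In QC 9.49% were lower. The plant-specific nucleolar HDT1 and HDT3 were called in 6 populations each. HDT3 averaged 467 FPKM in Xyl and 24.1 in the NSCs (4.23 ± 0.55, adjusted p = 2.1e-06).

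CENH3 (AT1G01370), the histone H3 variant of centromeres, had 16.1, 18.7, 11.3 and 14.1 FPKM in Xyl, 12.4, 18.8 and 7.52 in CSCs and 12.3, 6.42 and 13.6 in Epi/LRC, against 3.22, 3.85, 0.522 and 0.865 in the NSCs. All 3 populations lay above the NSCs and were called (2.52 ± 0.66, adjusted p = 0.00316, 2.25 and 2.03). The CSCs call was lost without CSCs replicate 2, and the Epi/LRC call without Epi/LRC replicate 1 or 3 or NSCs replicate 3 or 4. Of 13 chromatin assembly and histone H3 genes, 7 each were higher in CSCs and Xyl, 6 in Epi/LRC, 3 in SCN and 2 each in CEI and QC, and none was lower. Of all genes tested, 22.6% were higher in CSCs, 20.0% in Xyl, 12.5% in Epi/LRC, 5.52% in SCN, 5.37% in CEI and 9.31% in QC. The replication-dependent H3 genes HTR13 and HTR2 were called in 6 populations each, HTR13 with 71.5 FPKM in Xyl and 2.96 in the NSCs.

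Because several members act on newly replicated DNA, 14 DNA replication genes (MCM, ORC, PCNA, CDC6, CDT1 and ribonucleotide reductase genes) were set beside them. Of these, 11 were higher in CSCs, 10 in Xyl, 10 in Epi/LRC, 8 in CEI, 7 in SCN and 5 in QC, and in Protophlo 0 were higher and 1 lower. Of all genes tested, 22.6% were higher in CSCs, 20.0% in Xyl, 12.5% in Epi/LRC, 5.37% in CEI, 5.52% in SCN and 9.31% in QC. In Protophlo 3.51% were higher and 10.5% lower. RNR1, the large subunit of ribonucleotide reductase, averaged 79.2 FPKM in CSCs and 4.96 in the NSCs. Their summed level was 451 to 649 FPKM in CSCs and 18.4 to 68.2 FPKM in Protophlo, against 39.7 to 119 FPKM in the NSCs. Within populations the libraries also differed: SCN replicate 1 had 94.5 FPKM beside 299 to 469 in the other SCN samples, CEI replicate 2 had 167 beside 525 and 532, and QC replicate 3 had 184 beside 329.9 and 336. SCN replicate 1 had the lowest MET1, VIM1, DDM1, CMT3 and AGO4 of its group, and so did CEI replicate 2. QC replicate 3 had the lowest MET1, VIM1, DDM1 and CMT3 of its group but the highest AGO4, CLF, RDR2 and HDA19.

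As a description, the log2(FPKM + 1) of each member was set against the mean of the replication genes over 28 samples, after the population means were removed. The points share library, depth and scaling. Pearson's r was 0.70 for MET1 (Spearman's rho 0.67), 0.68 for CMT3 (0.64), 0.64 for HDA19 (0.50) and 0.64 for AGO4 (0.55). These 4 members exceeded 0.6, as did 5.03% of all tested genes, and the median was 0.31 over the members and 0.10 over all genes. Without CEI replicate 2 and SCN replicate 1, the libraries farthest from the median, r was 0.50 for MET1, 0.59 for CMT3, 0.43 for HDA19 and 0.47 for AGO4, so the relation rests in part on those libraries. SDG8 (-0.38) and INO80 (-0.13) had no positive relation within populations. Nor did VRN2 (-0.24), ATXR3 (-0.17), SUVH6 (-0.14), BRM (-0.11), ATX2 (-0.08) and CHR11 (-0.06). With population means kept, r was 0.91 for MET1, 0.90 for AGO4, 0.50 for INO80 and 0.08 for SDG8. On that measure 22 members exceeded 0.6, as did 17.2% of all tested genes. The part of cell division in the differences between populations was not tested.

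**Figure D5:**
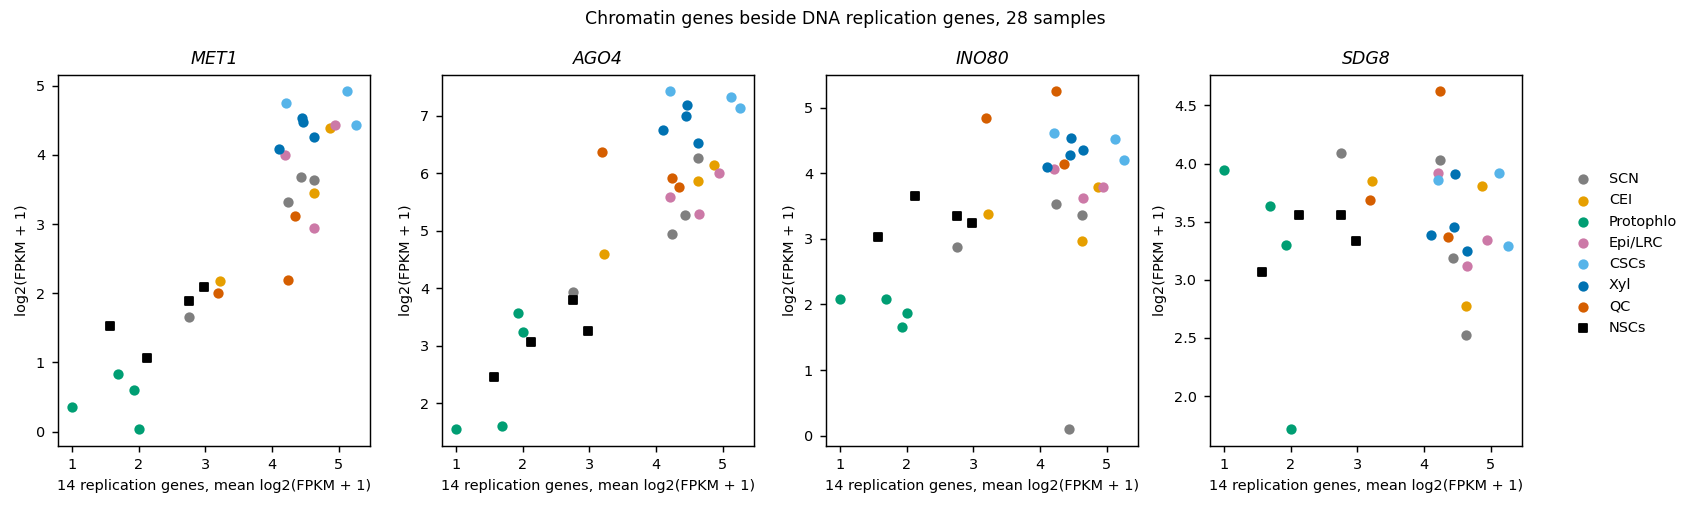
Log2(FPKM + 1) of 4 chromatin genes (y axes) against the mean log2(FPKM + 1) of 14 DNA replication genes (x axes) in the 28 samples, coloured by population, NSCs as black squares. Population means are not removed in the plot. Protophlo and the NSCs lie at the low end of the x axis, where MET1 and AGO4 are also low.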

How the data were processed

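RNA from fluorescence-sorted root protoplasts of 8 populations was amplified with SMART kits, which do not mark strand, and sequenced as 100-base single reads. The authors aligned the reads (the submitters' processing notes name TopHat2 2.0.13, Cufflinks 2.1.1 and TAIR10; the study's methods name Bowtie and Rsubread) and deposited 1 table of FPKM values for 33201 genes in 28 samples. The study tested counts with PoissonSeq; counts were not analysed here, so limma 3.58.1 (R 4.3.3) was fitted with a mean-variance trend to log2(FPKM + 1), over all 8 populations together, for the 22694 genes at 1 FPKM or more in at least 3 samples. Calls needed a Benjamini-Hochberg adjusted p under 0.06 and a fold change above 2; the F test needed 0.05. Tables, sequences and plots were made in Python 3.11.15 with pandas 2.3.3, and the fit was tested on simulated data. Groups came from the sample labels; the CEI columns were matched by elimination from names. Low FPKM steps give a rough depth of 6830000 to 26700000 reads a sample, so values near 0 carry large counting error. 12 members overlap another annotated gene and their values are uncertain without strand. They are KYP, SUVH6, DCL3, CLF, FIE, LHP1, SDG8, BRM, PKL, INO80, CHR17 and HDA6. Sequences and coordinates are from RefSeq's TAIR10.1; no promoter or protein table was used. FPKM values by sample are given for the member called in the most comparisons of each role group, the largest change each way in each comparison and the 5 largest F; other members are given by counts or changes. The alternatives were a pseudocount of 0.1, no filter, TPM, size factors, a replicate block, no trend, the population with the NSCs alone, leaving out the SCN samples, other thresholds, each library left out and, chosen after seeing the data, both high-CASP1 libraries left out. The members and lists were chosen with earlier results of these data known.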

Additional observations from a re-analysis of the deposited data

Results flagged for a closer look

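In groups of 4 samples, 8 members had 1 sample far from the other 3, of 176 groups looked at; chance gives about 1 in 20. These were DRM2 in Xyl replicate 4 (10.6 FPKM, others 7.32 to 7.40), SUVH5 in Protophlo replicate 1 (3.05 FPKM, others 0 to 0.0249), SUVR1 in Protophlo replicate 1 (1.17 FPKM, others 0 to 0.0555) and DML3 in Xyl replicate 1 (0.0775 FPKM, others 0). The others were MEA in SCN replicate 4 (0.837 FPKM, others 0 to 0.0347), ATXR6 in Protophlo replicate 3 (5.49 FPKM, others 0), BRM in Protophlo replicate 4 (0.70 FPKM, others 2.75 to 3.37) and PKL in NSCs replicate 4 (4.98 FPKM, others 10.8 to 12).

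For 7 of the 44 tested members (15.9%), 1 population lay wholly above the NSCs and another wholly below them, as for 12.4% of all tested genes. The genes were chosen for lying on opposite sides, which fixes the direction, so the differences between these populations are given as descriptions. MET1 was higher than in Protophlo by 2.88 in CEI, 3.34 in Epi/LRC, 4.24 in CSCs and 3.89 in Xyl, on the log2 scale. SWN was higher than in Protophlo by 2.25 in CSCs and 2.28 in Xyl, and ATX2 by 2.30 in Xyl and 2.07 in QC. INO80 was higher than in Protophlo by 2.52 in CSCs, 2.40 in Xyl and 2.83 in QC. CHR11 was higher by 1.77, 1.45 and 1.26, and CHR17 by 4.01, 3.34 and 3.12, in CSCs, Xyl and QC in that order. DML3 was higher in Protophlo than in Xyl by 1.12 at low levels (means 1.24 and 0.0194 FPKM).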

How the results depend on the processing

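No called member changed sign under any alternative or left-out library. With a pseudocount of 0.1, 2 members were higher in CEI, 0 higher in Protophlo, 2 lower in Epi/LRC, 0 lower in QC and 0 higher in QC against the other 5 populations. CEI had 3 higher members with no filter, 3 on the TPM scale, 3 at an adjusted p under 0.05 and 8 without the high-CASP1 libraries. Protophlo had 5 lower members on the TPM scale, 6 with size factors and 5 without the high-CASP1 libraries. Over all genes, 2127 were lower in Protophlo on the TPM scale and 2264 with size factors, against 2383 in the main fit. Size factors gave 2 lower in Epi/LRC and 6 higher in QC. With the NSCs alone, 0 members were lower in SCN, Epi/LRC or QC and 0 higher in Protophlo.

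With the replicate block, 2 members were higher in CEI, 6 lower in Protophlo and 2 lower in Epi/LRC, and 78 pairs of a member and a population were called, against 94 without it. Same-numbered samples correlated with the NSCs by -0.18 to 0.13, so the numbers were not taken to pair the samples. SCN and NSCs were sorted from the same line, and 3 of the 4 SCN samples correlated best with the NSC sample of their own number, but at 0.12 or less, and the labels do not say that a number marks a shared sort. MET1 in SCN was lost with the block.

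Leaving out 1 library at a time gave 4 to 8 higher members in SCN, 1 to 8 in CEI, 0 to 1 in Protophlo, 7 to 12 in Epi/LRC, 18 to 26 in CSCs, 16 to 22 in Xyl, 5 to 14 in QC and 0 to 3 in QC against the other 5. Lower members numbered 0 to 1 in CEI, 4 to 10 in Protophlo, 1 to 2 in Epi/LRC and 0 to 1 in QC, and 32 to 35 members passed the F test. The count of 0 higher in Protophlo came without Protophlo replicate 3 or NSCs replicate 4, 2 lower in Epi/LRC without Epi/LRC replicate 3, and 0 lower in QC without QC replicate 1 or NSCs replicate 1 or 2. The causes were not tested.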
